A study of Mus musculus with 2 samples.

Results

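The hepatic iron handling genes are a group of 10 genes named for their roles in iron metabolism, Hamp, Hfe, Hfe2, Tfrc, Tfr2, Fth1, Ftl1, Slc40a1, Scara5 and Cp, of which 7 were matched by symbol among the 8551 genes analysed here. Tfr2 stands in the data under its older symbol Trfr2 with the same Entrez identifier, 50765, and so escaped the match by symbol; it was added after its values were seen, is described beside the 7 and is left out of their counts unless stated. Hamp and Ftl1 were not analysed here. Liver was taken from male mice with a C57BL/6 background at 9 weeks of age, about 3 h into the light cycle, either wild type (normal) or db/db, a line that carries a defective leptin receptor and becomes obese and diabetic. Poly(A) RNA was read as digital gene expression tags, with a single library for each group. The differences below therefore have no replicate check, and no p-value compares the conditions. The mice came from a pair of suppliers, and neither which group came from which supplier nor whether RNA of several mice was pooled is stated, so genotype, supplier and single-mouse differences cannot be told apart. Lepr, the gene mutated in db/db mice, was not analysed here, so the genotype was not checked in the values.

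The liver is the main store of body iron and makes hepcidin, the hormone that closes the iron exporter ferroportin. Hepatocytes read plasma iron through the membrane proteins HFE, hemojuvelin and transferrin receptor 2, which act with BMP and SMAD signals on the hepcidin gene. Iron enters cells bound to transferrin through transferrin receptor 1, or bound to ferritin through SCARA5, and is stored inside ferritin shells built of heavy and light chains. Ferroportin lets iron out, and ceruloplasmin, a copper protein of plasma, oxidizes it for loading onto transferrin. Iron regulatory proteins bind stem-loops in the mRNAs of ferritin, ferroportin and transferrin receptor 1 and adjust their translation or stability.

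In this method the enzyme DpnII cuts cDNA at GATC, and the cut nearest the 3′ end of an mRNA gives its tag, so that a transcript is counted once whatever its length. The 20 bases from that GATC were read from the longest RefSeq-matched coding transcript of each gene in GENCODE M21 (GRCm38), to show where such a tag would lie. Whether each deposited value counts this tag alone, or also tags of other sites or transcripts, was not checked. The tags of the members with values and of Tfr2, Ftl1 and Hamp2 follow, with the cut site in capitals.
Hfe, chr13:23702684-23702703, − strand, 3′ UTR in exon 6 of 6: GATCagaaccttaaagtgat
Hfe2, chr3:96527582-96528082, + strand, coding sequence across exons 3 and 4 of 4: GATCactatcatatttaaaa
Tfrc, chr16:32632608-32632627, + strand, 3′ UTR in exon 19 of 19: GATCttttgtcatgactcac
Fth1, chr19:9984677-9984791, + strand, coding sequence across exons 3 and 4 of 4: GATCcccacttatgtgactt
Slc40a1, chr1:45908202-45908221, − strand, 3′ UTR in exon 8 of 8: GATCtactatgttgtcaaag
Scara5, chr14:65764346-65764365, + strand, 3′ UTR in exon 9 of 9: GATCtgaccaactgttatgt
Cp, chr3:20007306-20007325, + strand, 3′ UTR in exon 20 of 20: GATCactgaattataccgtt
Tfr2, chr5:137587355-137587374, + strand, 3′ UTR in exon 18 of 18: GATCagctctcttagagagt
Ftl1, chr7:45458554-45458573, − strand, coding sequence in exon 3 of 4: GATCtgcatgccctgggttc
Hamp2, chr7:30922594-30922696, − strand, coding sequence across exons 2 and 3 of 3: GATCccaatgcagaagagaa
The tags of the 7 members with values and of Tfr2 occurred in no other annotated gene, as did 88% of the last tags of 20130 genes. The tag of Ftl1 occurred in 13 other annotated genes, among them Ftl1-ps1 and Ftl1-ps2. The Hamp transcript of 410 bases held 0 GATC sites, whereas 98.2% of 20496 genes had at least 1 usable site. The Hamp2 transcript held 1 GATC site, and its tag occurred in no other annotated gene.

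Levels are given in TPM, the deposited unit, which counts tags of a gene per 1000000 clean tags of its library and holds no term for length. They rose in equal steps of 1 read, from which 10278530 clean tags were computed for the normal and 13508231 for the diabetic library, and 37.1% and 44.4% of these were on the listed genes. Intervals are exact 95% intervals from these reads and cover counting error only. Differences are log2 ratios of diabetic over normal TPM. The median log2 ratio of all listed genes was 0.25, and 4 other scalings between the libraries lowered each log2 ratio by 0.25 to 0.31, so each difference is also given relative to that median. Of all genes, 34.4% were at least 1.5-fold higher and 15.3% at least 1.5-fold lower in the diabetic library, 49.7% in all. Of the 7 members, 2 were at least 1.5-fold higher (Fth1 and Hfe2), 1 was at least 1.5-fold lower (Scara5), and 4 lay within 1.5-fold, which is near the background in both directions. With Trfr2 counted, 3 of 8 were higher and 1 was lower. Under each of the 4 scalings 0 of the 7 members were at least 1.5-fold higher and Scara5 alone was lower, whereas Trfr2 remained past 1.5-fold higher, and the background under them was close to even. It was 23.7% of all genes higher and 23.9% lower when scaled to the sum of listed genes, 24% and 23.6% with trimmed mean of M values (TMM) scaling, 21.9% and 25.6% with median-ratio scaling, and 23.4% and 24.3% with upper-quartile scaling. The median log2 ratio of the members was 0.32, and 0.06 after TMM scaling (0.34 and 0.09 with Trfr2). In bulk liver RNA, fewer cells of a type and less RNA per cell cannot be told apart.

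Fth1 (Entrez 14319) encodes the ferritin heavy chain, which oxidizes iron as it enters the ferritin shell. Its level was 906.7 TPM in normal liver (9320 reads) and 1548 TPM in diabetic liver (20904 reads). It was the most abundant member in both libraries, at rank 50 and rank 47 of all listed genes. Its log2 ratio was 0.77 (95% interval, 0.74 to 0.81), a 1.71-fold higher value, and 73.7% of all genes had a lower ratio. Relative to the median gene the difference was 0.52, and after TMM scaling Fth1 was below 1.5-fold.

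**Figure D1:**
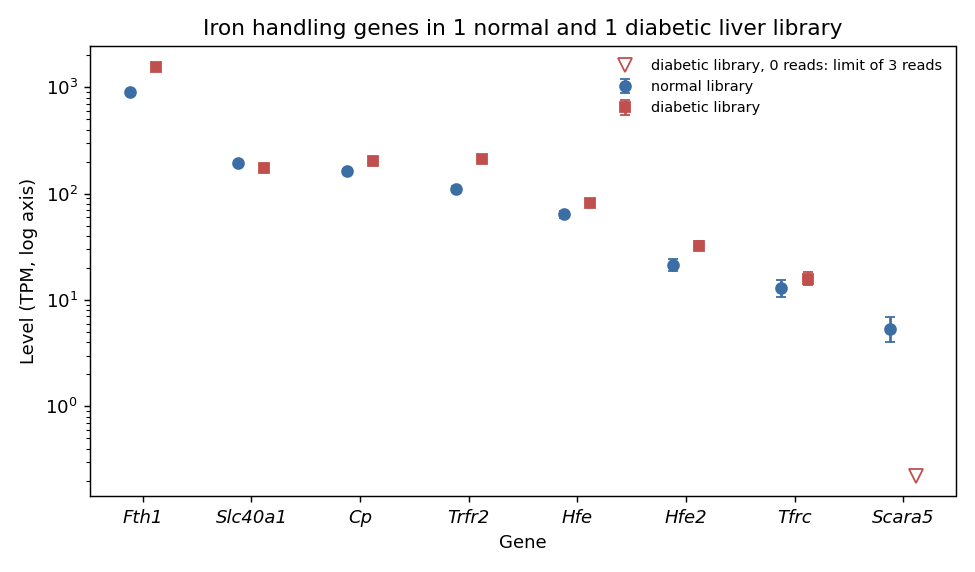
Level of each iron handling gene in TPM on a log axis, with circles for the normal and squares for the diabetic library, bars for exact 95% counting intervals, and an open triangle at the limit of 3 reads where a value was taken as 0 reads. Fth1 stands above the other genes in both libraries, Slc40a1 and Cp exchange their order, and Scara5 is above the limit of 3 reads in the normal library only. Trfr2 is Tfr2 under its older symbol, at 111.3 and 210.2 TPM.

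Slc40a1 (Entrez 53945) encodes ferroportin, the only known iron exporter of mammalian cells, which the liver carries on both macrophages and hepatocytes. Its level was 195 TPM in normal liver (2004 reads) and 173.8 TPM in diabetic liver (2348 reads). This gives a log2 ratio of -0.17 (95% interval, -0.25 to -0.08), and its rank went from 290 to 425. Relative to the median gene the difference was -0.42, and it lay between -0.47 and -0.42 under the 4 scalings. Of all genes 30.55% had a lower ratio, so Slc40a1 lay below the middle of the distribution without reaching 1.5-fold under any scaling.

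Cp (Entrez 12870) encodes ceruloplasmin, which works with ferroportin by oxidizing the exported iron. With 1659 reads in normal and 2714 reads in diabetic liver, its level was 161.4 and 200.9 TPM. The log2 ratio of 0.32 (95% interval, 0.23 to 0.41) lay 0.06 above the median gene. Slc40a1 was above Cp in the normal library and below it in the diabetic library, and within each library their exact intervals in TPM did not overlap.

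Scara5 (Entrez 71145) encodes a scavenger receptor that binds ferritin and brings its iron into cells, and is known from stromal cells of several organs. It had 55 reads in the normal library, which is 5.35 TPM (95% interval, 4.031 to 6.965). In the diabetic library it stood at the placeholder of 0.01 TPM, which is taken for every gene as 0 reads, here of 13508231 clean tags. No deposited value was at 1 read, so the placeholder can also stand for 1 read. For the fold it is set to a limit of 3 reads, or 0.222 TPM, and the exact 95% interval for 0 reads reaches 0.2731 TPM. Set against 3 reads, 5.35 TPM is 24.1-fold higher. The exact counting interval of the log2 ratio for 0 reads, which also takes in the error of the 55 reads, has its upper end at -4.24, a smaller difference. Scara5 came into the table through the normal library alone, since genes were listed by their mean. Of 1047 genes between 4.28 and 6.69 TPM in the normal library, around the level of Scara5, 3 had 0 reads in the diabetic library, Scara5 included. Of 4922 genes with at least as many reads in the normal library, 4 had 0 reads in the diabetic one. Of 12 markers of stellate and stromal cells named 8 were listed, and a marker low in both libraries would not be among them. The 8 summed to 123.2 TPM in the normal and 164.4 TPM in the diabetic library, and 0 of them had 0 reads in either library. Of the 8 markers 2 were at least 1.5-fold higher and 1 was lower, beside 34.4% and 15.3% of all genes. Chosen after their values were seen, Reln was the lower one, at 12.84 and 7.11 TPM, and Pdgfrb, a higher one, had only 22 and 46 reads. Dcn, the most abundant, was at 56.91 and 84.39 TPM and Col1a1, the most changed, at 3.11 and 9.4 TPM. The part of these cells in the value of Scara5 was not tested.

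**Figure D2:**
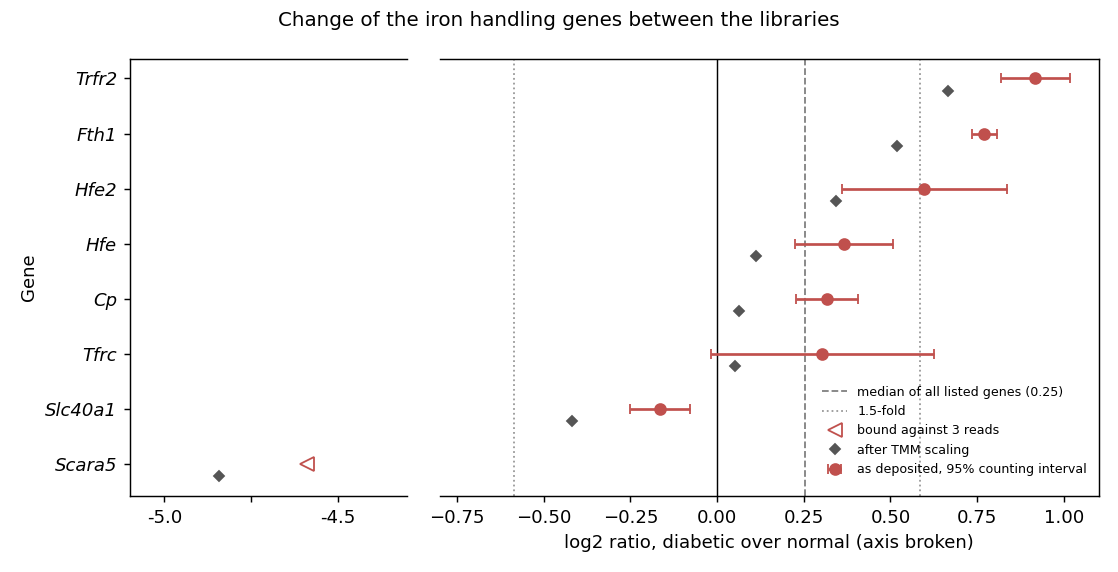
The log2 ratio of diabetic over normal TPM for each iron handling gene as deposited, with 95% counting intervals, and after TMM scaling (diamonds). The broken axis keeps one scale, the dashed line is the median of all genes at 0.25, the dotted lines mark 1.5-fold, and the open triangle of Scara5 is a bound against 3 reads. Fth1 and Hfe2 pass 1.5-fold only as deposited, and Trfr2 (Tfr2 under its older symbol) also after TMM scaling.

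Hfe (Entrez 15216) encodes an MHC class I-like protein that binds transferrin receptor 1 and takes part in hepcidin control, and its loss causes hemochromatosis. Hfe mRNA was counted 654 times in normal and 1107 times in diabetic liver, at 63.63 and 81.95 TPM. Its log2 ratio was 0.37 (95% interval, 0.22 to 0.51), 0.11 above the median gene. Hfe2 (Entrez 69585, now named Hjv) encodes hemojuvelin, the BMP co-receptor of the hepcidin pathway. Its level was 21.4 TPM in normal (220 reads) and 32.35 TPM in diabetic liver (437 reads). The log2 ratio of Hfe2 was 0.60 (95% interval, 0.36 to 0.84), which is 1.51-fold with an interval that spans the 1.5-fold limit. Relative to the median gene Hfe2 was 0.34 higher. The reads therefore do not place Hfe2 on either side of 1.5-fold.

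Trfr2 (Entrez 50765), the older symbol of Tfr2, stands for transferrin receptor 2, which hepatocytes use to sense iron-loaded transferrin. It had 1144 reads in normal and 2840 reads in diabetic liver, at 111.3 and 210.2 TPM. Its log2 ratio was 0.92 (95% interval, 0.82 to 1.02), a 1.89-fold higher value, and 78.91% of all genes had a lower ratio. Relative to the median gene the difference was 0.67, and it lay between 0.61 and 0.67 under the 4 scalings, each past 1.5-fold. It was thus the highest ratio among the named genes with values, above Fth1, under the deposited and each other scaling.

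Tfrc (Entrez 22042) encodes transferrin receptor 1, whose mRNA is stabilized by iron regulatory proteins when iron is low. Counts were low, 132 in normal and 214 in diabetic liver, at 12.84 and 15.84 TPM. Its ratio on the log2 scale was 0.30 (95% interval, -0.02 to 0.63), within counting error of 0, and it was -0.003 under median-ratio scaling. In an exact binomial test of its reads (two-sided, Benjamini-Hochberg adjusted over 8551 genes), Tfrc had a false discovery rate (FDR) of 0.0951. The other members with values, 6 of 7, had an FDR under 0.001 in this exact test, as did 37.6% of all genes. The test takes each read as a trial and compares single libraries, so it says nothing of the conditions. Both criteria of the study, at least 1.5-fold and an FDR under 0.001, were met by 3 members, Fth1, Hfe2 and Scara5, against 22.9% of all genes higher and 8.19% lower, 31% in all. The call of Scara5 rests on a diabetic value taken as 0 reads, and Scara5 was listed through the normal library alone. Trfr2 met both criteria too (FDR of 5.2e-78 in the exact test).

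The order of levels was Fth1, Slc40a1, Cp, Hfe, Hfe2, Tfrc and Scara5 in the normal library, and the same with Slc40a1 and Cp exchanged in the diabetic library. Neighbours in either order had TPM intervals that did not overlap. Trfr2 stood between Cp and Hfe in the normal library, and beside Cp in the diabetic library, where the intervals of the pair overlapped (202.6 to 218.1 and 193.4 to 208.6 TPM). Ratios between members within a library do not depend on the scaling between libraries, and 15 pairs of the 6 members read in both libraries were compared by their exact intervals, with no test. Intervals of the normal and diabetic ratio did not overlap for 8 pairs. Every one of these 8 held Fth1 or Slc40a1, and for the 7 other pairs the intervals overlapped. Fth1 over Slc40a1, ferritin heavy chain over the exporter, differed most of the 15, with 4.65 reads of Fth1 per read of Slc40a1 in the normal library (95% interval, 4.43 to 4.88) and 8.90 in the diabetic library (8.53 to 9.29). Slc40a1 over Cp was 1.21 (1.13 to 1.29) in the normal and 0.865 (0.818 to 0.915) in the diabetic library. Cp over Tfrc differed least of the 15, at 12.57 (10.52 to 15.12) and 12.68 (11.03 to 14.64). Thus for Cp, Hfe, Hfe2 and Tfrc the intervals of their ratios to each other overlapped, which does not show that these ratios were equal. Slc40a1 was lower relative to each of the other 5 members read in both libraries. Fth1 was higher relative to each of them except Hfe2, where the intervals overlapped. Of 6 further pairs with Trfr2, 5 had intervals that did not overlap. Slc40a1 over Trfr2 was 1.75 (1.63 to 1.89) in the normal and 0.827 (0.782 to 0.874) in the diabetic library, a wider difference than that of Fth1 over Slc40a1. Trfr2 over Hfe was 1.75 (1.59 to 1.93) and 2.57 (2.39 to 2.75), and for Trfr2 over Hfe2 the intervals overlapped.

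**Figure D3:**
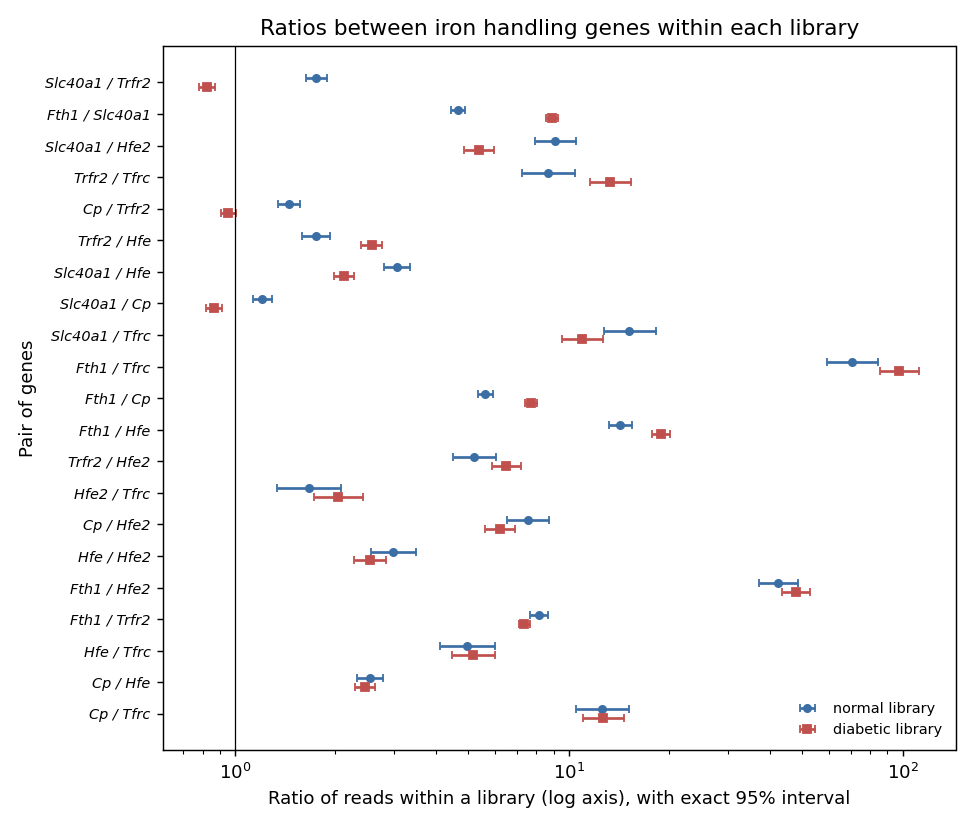
Ratios of reads between pairs of iron handling genes within the normal (circles) and the diabetic library (squares), on a log axis, with exact 95% intervals. Pairs are ordered by how much the ratio differs between libraries, from Cp over Tfrc at the bottom to Slc40a1 over Trfr2 at the top. Of the 15 pairs of members 8, and of the 6 pairs with Trfr2 (Tfr2 under its older symbol) 5, have intervals that do not overlap.

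The members differ in whether their mRNA carries an iron-responsive stem-loop and where. The longest transcripts were searched on the sense strand for a C, 5 bases, the loop letters CAGTG with A, C or T after them, and 5 bases that pair with the first stem. The matches are shown for the members that hold one, as GRCm38 positions from GENCODE M21 with the loop in capitals.
Fth1, 5′ UTR, chr19:9982732-9982760, + strand: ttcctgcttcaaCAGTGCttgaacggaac
Ftl1, 5′ UTR, chr7:45459779-45459807, − strand: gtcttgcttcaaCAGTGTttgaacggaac
Slc40a1, 5′ UTR, chr1:45925465-45925493, − strand: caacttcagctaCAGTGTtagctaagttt
Tfrc, 3′ UTR, chr16:32631219-32631247, + strand: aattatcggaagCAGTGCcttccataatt
Tfrc, 3′ UTR, chr16:32631598-32631626, + strand: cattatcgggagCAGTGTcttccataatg
Tfrc, 3′ UTR, chr16:32631663-32631691, + strand: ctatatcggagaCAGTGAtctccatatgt
Tfrc, 3′ UTR, chr16:32631710-32631738, + strand: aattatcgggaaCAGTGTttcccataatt
Such letters were in the longest transcript of 0.917% of 20496 genes, and before the coding start in 0.0683%, which is 14 genes. In the 5′ UTR iron regulatory proteins are known to block translation, and in the 3′ UTR to protect the mRNA. Fth1 and Slc40a1, which share the 5′ position, had log2 ratios of 0.77 and -0.17, on opposite sides of the median gene. Tfrc, with 4 matches in the 3′ UTR, had a ratio within 0.05 of the median gene. No match was found in the transcripts of Hfe, Hfe2, Scara5, Cp, Tfr2, Hamp or Hamp2, which says only that these letters were not in them.

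Hamp encodes hepcidin, and Hamp2 (Entrez 66438), which was chosen after its values were seen, is its neighbouring paralog. Hamp2 was read 1157 times in normal and 12321 times in diabetic liver, at 112.6 and 912.1 TPM. Its log2 ratio of 3.02 (95% interval, 2.93 to 3.11) is 8.10-fold, and 98.8% of all genes had a lower ratio. It stayed between 2.71 and 2.77 under the 4 scalings. This value stands for Hamp2 only as far as the tag above is counted for it, and it gives no level of Hamp.

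The promoters of the pair are shown since BMP and STAT3 signals are known to act on the hepcidin gene through the motifs GGCGCC and TTCTTGGAA, in capitals here. The 60 bases are from RefSeq (GRCm38.p6), start 127 bases before the start of Hamp and 124 bases before that of Hamp2, and are written in the direction of transcription.
Hamp, chr7:30944097-30944156, − strand: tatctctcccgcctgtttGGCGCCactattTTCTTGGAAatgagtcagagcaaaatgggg
Hamp2, chr7:30924246-30924305, − strand: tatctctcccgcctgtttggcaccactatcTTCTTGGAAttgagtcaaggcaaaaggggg
The windows differed at 6 bases, and 227 of the 250 bases before the start of Hamp were identical to Hamp2 when aligned. Counted from 1 at the 5′ end of the window, the change G22A falls in GGCGCC, which was found in the Hamp but not in the Hamp2 window of 250 bases on either strand. TTCTTGGAA was found in both. Of 32851 promoter windows of 300 bases, 11.9% held GGCGCC and 0.417% held TTCTTGGAA on either strand. A match is a description of letters and not of binding.

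**Figure D4:**
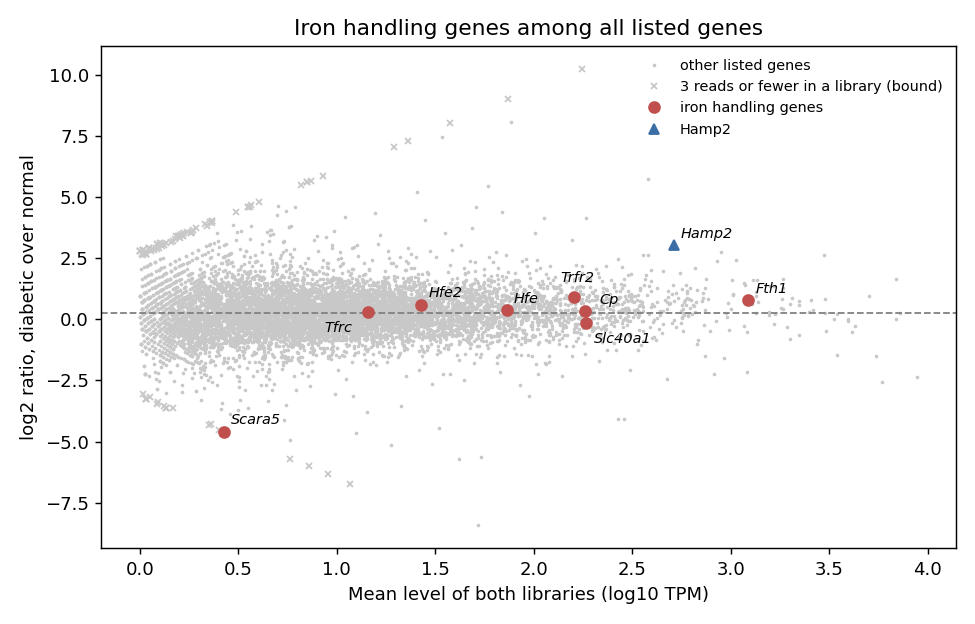
Each point is a gene, with its mean level in log10 TPM on the x axis and its log2 ratio of diabetic over normal on the y axis; crosses are bounds for genes at 3 reads or fewer in a library, and the dashed line is the median of 0.25. Of the 7 members, 5 lie above that line, as does Trfr2 (Tfr2 under its older symbol), Slc40a1 lies below it and Scara5 lies among the bounds far below, while Hamp2 stands well above.

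Genes that control hepcidin through BMP and SMAD differed in both directions. Of 19 symbols named, 15 were listed, and 4 were at least 1.5-fold higher and 4 lower, beside 34.4% and 15.3% of all genes. Their median log2 ratio was -0.18, beside 0.25 for all genes. After TMM scaling 4 were higher and 6 lower, beside 24% and 23.6% of all genes, and the median was -0.43. Tmprss6, the protease that cuts hemojuvelin and the most abundant of them, had 82.79 TPM in normal and 68.03 TPM in diabetic liver. Id1, a target gene of BMP signals, was at 9.83 and 22.65 TPM, a log2 ratio of 1.20 (95% interval, 0.88 to 1.54). Smad4, the common SMAD partner, and Bmp2, a ligand made by endothelial cells, were chosen after their values were seen. Smad4 had 123 and 32 reads, a log2 ratio of -2.34 (-2.95 to -1.77), and Bmp2 had 106 and 72 reads, a log2 ratio of -0.95 (-1.41 to -0.51). Markers of sinusoidal endothelial cells, the main source of these ligands, summed to 180.8 TPM in the normal and 152.1 TPM in the diabetic library. Of 12 such markers 4 were at least 1.5-fold lower and 2 higher, with Clec4g, the most abundant, at 47.67 and 30.65 TPM. Kdr, at 11.97 and 22.13 TPM, was the most changed of those with a mean of at least 5 TPM as deposited, but after TMM scaling Clec4g was, at -0.89 against 0.63 on the log2 scale. After that scaling 5 were lower and 2 higher, and their part in the value of Bmp2 was not tested.

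Of the genes of IL-6 and STAT3 signals to hepcidin, 7 of 9 were listed. Of these 2 were at least 1.5-fold higher and 2 lower, beside 34.4% and 15.3% of all genes, with a median log2 ratio of -0.28. Creb3l3, a liver transcription factor of the endoplasmic reticulum, was at 39.6 and 67.29 TPM, a log2 ratio of 0.77 (95% interval, 0.60 to 0.94). Jak1, a kinase of the receptor, was at 26.66 and 12.21 TPM, a log2 ratio of -1.13 (-1.41 to -0.84). After TMM scaling 0 of the 7 listed genes were at least 1.5-fold higher and 3 were lower, beside 24% and 23.6% of all genes, and their median was -0.53.

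Plasma carriers and scavengers had a median log2 ratio of -0.001, with 2 of 7 listed genes at least 1.5-fold higher and 1 lower, beside 34.4% and 15.3% of all genes. After TMM scaling 1 was higher and 3 lower, beside 24% and 23.6% of all genes. Trf, which encodes transferrin and is the most abundant of them, had 3333 TPM in normal and 3331 TPM in diabetic liver, a log2 ratio of -0.001 (95% interval, -0.021 to 0.019), and -0.25 after TMM scaling. Lcn2, which encodes a protein that binds bacterial iron chelators, was at 16.73 and 71.59 TPM, a log2 ratio of 2.10 (1.86 to 2.34). Hmox1, the heme-degrading enzyme, was at 11.38 and 19.25 TPM. Cd163, the hemoglobin receptor of macrophages, was at 20.53 and 10.07 TPM, a log2 ratio of -1.03 (-1.35 to -0.71).

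Of 14 symbols named as markers of Kupffer cells, the macrophages of the liver, 9 were listed. Of these 9 markers 5 were at least 1.5-fold lower and 1 was higher, beside 15.3% and 34.4% of all genes. The sum of the 9 was 342 TPM in the normal and 200 TPM in the diabetic library. C1qa, the most abundant, was at 176.5 and 50.71 TPM, and C1qc, the most changed, was at 11.09 and 3.18 TPM. Named after their values were seen, the remaining lower markers were Csf1r at 21.7 and 10.14 TPM, Slc11a1 at 15.47 and 6.37 TPM, and Emr1 at 8.95 and 4.37 TPM. Without C1qa the other 8 summed to 165.5 and 149.3 TPM. None of the 9 was at 0 reads in either library, but genes were listed by their mean, so a marker low in both would not be among them. Chosen after their values were seen, C1qb was higher, at 38.14 and 57.82 TPM, and Cd5l was at 64.7 and 62.92 TPM. The sum was lower in the diabetic library, as were Cd163 and Slc40a1, and the part of these cells in those values was not tested. Of 12 erythroid markers named 3 were listed, and 2 were at least 1.5-fold higher and 0 lower, beside 34.4% and 15.3% of all genes. Alas2, the most abundant, was at 51.86 and 44.2 TPM. The higher ones were Car1 at 2.43 and 6.22 TPM (25 and 84 reads) and Klf1 at 3.5 and 6.37 TPM (36 and 86 reads). Both had few reads and a mean below 5 TPM, and the hemoglobin genes were not analysed here. Of 11 hepatocyte markers named 8 were listed, and 2 were at least 1.5-fold higher and 1 lower, beside the same shares of all genes. The lowest level of these 8 was 46.19 TPM, that of Hnf4a in the diabetic library. Both libraries thus carried these 8 hepatocyte transcripts, and the markers that were not listed have no value here. Cyp2e1, the most abundant, was at 6581 and 7817 TPM, and Alb at 6801 and 6912 TPM. Cps1, at 130.3 and 316.7 TPM, was the most changed as deposited, but under each of the 4 scalings Hnf4a was, at 96.8 and 46.19 TPM.

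Genes of iron uptake, reduction and cytosolic handling had a median log2 ratio of 0.16. Of 11 listed, 3 were at least 1.5-fold higher and 1 lower, beside 34.4% and 15.3% of all genes. After TMM scaling 1 was higher and 2 lower, beside 24% and 23.6% of all genes. Pcbp2, an iron chaperone that also binds RNA, was at 98.17 and 156 TPM, and Abcg2, an exporter of heme and other compounds, was at 22.57 and 64.7 TPM. Steap4, a metal reductase, was at 55.26 and 31.76 TPM, a log2 ratio of -0.80 (95% interval, -0.98 to -0.62). Of 5 listed genes of the iron regulatory proteins and their control, 1 was at least 1.5-fold higher and 0 lower. After TMM scaling 1 was higher and 1 lower, with the shares of all genes as above in each case. The higher one in both was Skp1a, a ubiquitin ligase subunit with many other roles, at 102.6 and 253.5 TPM. Ireb2, which encodes iron regulatory protein 2, had only 30 and 44 reads, a log2 ratio of 0.159 (95% interval, -0.544 to 0.879). Aco1, which encodes iron regulatory protein 1, had 15 and 14 reads, a log2 ratio of -0.489 (-1.655 to 0.658). Both intervals took in 0.

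The mitochondrial list had the highest median of the lists of other iron genes, 0.71, or 0.46 after TMM scaling. Of 24 genes named 16 were listed, and 9 were at least 1.5-fold higher and 0 lower, beside 34.4% and 15.3% of all genes. After TMM scaling 7 of 16 were at least 1.5-fold higher and 0 lower, beside 24% and 23.6% of all genes. Glrx5, the glutaredoxin that passes on new iron-sulfur clusters, was at 90.87 and 332.9 TPM, a log2 ratio of 1.87 (95% interval, 1.77 to 1.98). Nfs1, which supplies the sulfur, was at 37.16 and 73.51 TPM, a log2 ratio of 0.98 (0.81 to 1.16). Isca2, a late assembly factor, was at 24.32 and 45.08 TPM, and the cochaperone Hscb was at 7.49 and 13.99 TPM. The ferredoxin Fdx1 was at 73.16 and 135.8 TPM and its reductase Fdxr at 23.64 and 36.05 TPM. Fech, which inserts iron into heme, was at 60.03 and 57.3 TPM.

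**Figure D5:**
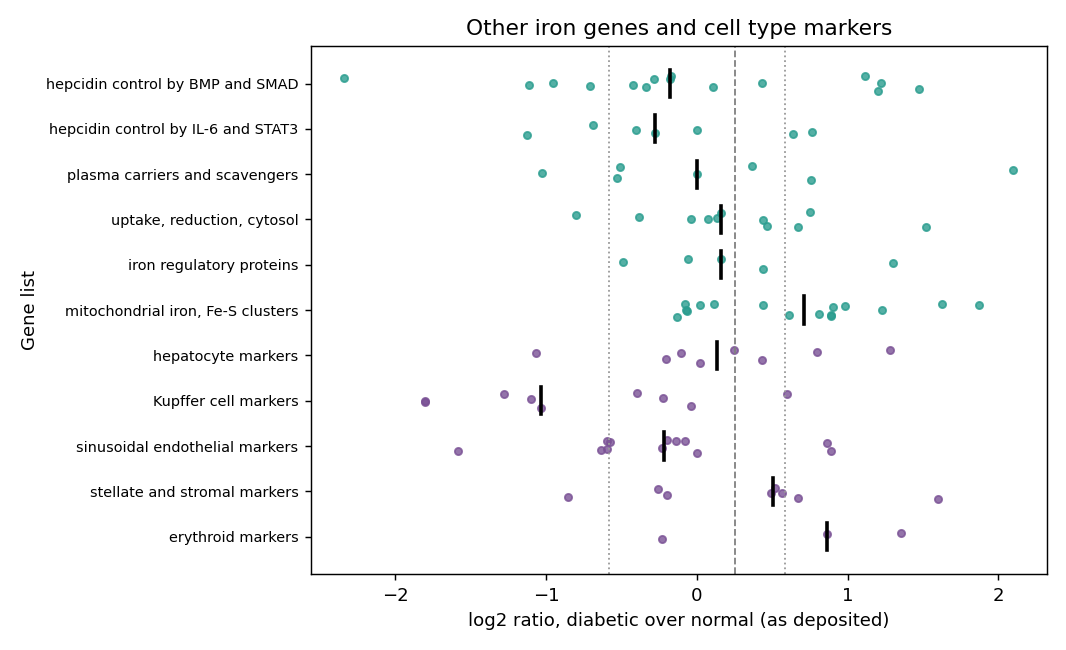
Log2 ratio of diabetic over normal TPM for each listed gene of 6 lists of other iron genes (green) and 5 lists of cell type markers (purple), with a black bar at the median of each list, a dashed line at the median of all genes and dotted lines at 1.5-fold. The mitochondrial list lies furthest to the right of the iron lists, with a median of 0.71, and the Kupffer cell markers furthest to the left, with a median of -1.03.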

How the data were processed

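Liver of 1 normal and 1 diabetic library was measured with digital gene expression tags. The authors removed adaptors, compared clean tags with RefSeq and deposited values they call TPM, which are RPM values, tags of a gene per 1000000 clean tags, with 2 decimals and a placeholder of 0.01 TPM. The placeholder was taken as 0 reads, but no deposited value was at 1 read, so it can also stand for 1 read. Every listed gene has a mean of 1 TPM or more. The labels name the build mm9. The aligner is not given in the sources used here. Groups came from the genotype labels. Reads were computed from the equal steps of the values: 8513 of 8513 values of the normal and 8536 of 8537 of the diabetic library were whole within the rounding of 0.005 TPM. A library at 3 reads or fewer was set to 3 reads for a fold. Ratios have exact Clopper-Pearson intervals from reads. The two-sided exact binomial test was adjusted over 8551 genes and tested on simulated data. The 4 scalings were to the sum of the listed genes, TMM (trimming 30% of log ratios and 5% of mean abundances), median ratio (mean of at least 10 TPM) and upper quartile. Other alternatives were pseudocounts of 0.1 and 1 TPM, a mean of at least 5 TPM, a fold of 2 and the Audic-Claverie test. Named were all members with values, genes of the other iron lists at least 1.5-fold different whose mean reached 10 TPM, the most abundant gene of each list, and the most abundant and most changed marker with a mean of at least 5 TPM. Other named genes are marked as chosen later, are given as examples of a role, or are erythroid markers, of which all 3 listed are named. Members and lists were chosen with earlier results of these data known. Members and lists were matched by symbol, so that Mfsd7b, the older symbol of Flvcr1, is not counted, and Smad8 and Smad9, like Emr1 and Adgre1, name the same gene. Trfr2 was found by its Entrez identifier. Gene symbols were matched to GENCODE M21 and RefSeq GRCm38.p6, and no coordinates of the deposited build were used. The number of other value columns was 0. Computation was in Python 3.11.15 with scipy 1.17.1 and numpy 2.4.6, tables were read with pandas 2.3.3, and plots were drawn with matplotlib 3.10.9.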

Additional observations from a re-analysis of the deposited data

How the results depend on the processing

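With 1 library per group, leaving out a replicate was not possible. No paired analysis was possible because each group has 1 library. Of 42 alternative log2 ratios of the members, 21 stayed within the counting interval, 21 moved outside it and 0 of the 3 members past 1.5-fold changed sign; Tfrc, which was not past it, was at -0.003 under median-ratio scaling. The 2 members at least 1.5-fold higher became 0 under each scaling and at a fold of 2, and 1 with a pseudocount of 1 TPM. The 1 lower member became 0 where the mean had to reach 5 TPM, which leaves out Scara5. The 3 members past both criteria became 1 under each scaling and at a fold of 2. Of all genes, 2941 were higher, against 1874 under median-ratio scaling, 1773 where the mean had to reach 5 TPM and 1589 at a fold of 2. The 1310 lower genes became 2044 with scaling to the sum of listed genes, 2022 under TMM, 2189 under median-ratio and 2076 under upper-quartile scaling, 658 where the mean had to reach 5 TPM and 582 at a fold of 2. The 2655 genes past both criteria became 1623 at a fold of 2. The 21 other iron genes that were higher became 13 under median-ratio scaling and 10 at a fold of 2. The 8 lower ones became 15 scaled to the sum, under TMM and under upper-quartile scaling, 17 under median-ratio scaling, 5 where the mean had to reach 5 TPM and 4 at a fold of 2. Counting Trfr2 as Tfr2, chosen after seeing the data, gave 3 higher, 1 lower and 4 past both criteria as deposited, and 1 higher under each scaling. Spread between animals enters no value.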
